A study of Mus musculus with 9 samples.

Results

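A set of 10 genes of the endoplasmic reticulum (ER) were followed in the mouse cortex after stroke: Hspa5, Hsp90b1, Hyou1, Calr, Pdia4, Creld2, Manf, Sdf2l1, Herpud1 and Xbp1. They were chosen by symbol, as 10 of the 52550 genes in the deposited tables, and a value here is the TPM of a gene, its share of the RNA of a library per transcript length, summed over its transcripts. All 10 passed the filter on low values (3 or more of the 9 libraries with a TPM of 1 or above), as did 17080 genes in all. The set holds folding helpers of the ER lumen, the ER membrane protein Herpud1 and the transcription factor Xbp1. It holds none of the membrane sensors Ern1, Eif2ak3 and Atf6, which are described further on.

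The mice were C57BL/6N males aged 9 to 12 weeks, and cortical RNA was sequenced in 3 groups of 3 libraries. In the control oligo and knockdown groups the middle cerebral artery was blocked with a filament for 1 h (MCAO, a model of ischemic stroke), followed by 6 h of reperfusion, and the infarcted cortex of the same side was taken. Before MCAO these mice had received locked nucleic acid antisense oligonucleotides through the lateral ventricles, of a negative control sequence (replicates 1, 2 and 3) or against the enhancer RNA eRNA_06347 (replicates 2, 3 and 4), whose own level is not analysed here. Sham mice (replicates 1, 2 and 3) had the neck incision without a filament, with no oligo named for them, and their libraries had been made by this laboratory for a previous data set. Data set, library preparation, oligo and stroke therefore cannot be told apart in any comparison with sham.

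Proteins that enter the ER fold there with the help of chaperones, lectins and disulfide isomerases. When unfolded proteins build up, the membrane sensors IRE1 (Ern1), PERK (Eif2ak3) and ATF6 set off the unfolded protein response: IRE1 cuts a short stretch out of the Xbp1 mRNA, which then encodes an active transcription factor, ATF6 is cut to release another, and PERK slows translation while favouring the factor ATF4. XBP1 and ATF6 act on many chaperone genes through the ER stress response element (ERSE) of their promoters, and interrupted blood flow is a known trigger of this response in brain.

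The letters of these elements were looked for in promoter windows of 300 bases around the gene starts, from a RefSeq table for GRCm38.p6 that held 8 of the 10 genes. Manf and Hyou1 had no window there, so whether they hold an element is not known. The windows of Pdia4, Sdf2l1 and Xbp1 held no exact match. The ERSE, searched on both strands as CCAAT and CCACG with 9 bases of any kind between them, was found in 4 of these 8 windows and in 0.119% of all 32851 windows of the same length. The ERSE-II, searched as ATTGG and CCACG with 1 base between them, was in 1 of the 8 (Herpud1) and in 0.037% of all windows, and the element formed by TGACG and TGG without a gap, known to bind XBP1 and ATF6, in 0 of the 8 and in 0.676% of all. No match in the 8 windows overlapped another. The matches, 5′ to 3′ on the strand of the gene with the motif in capitals, are given because the 5 genes that hold one, Hspa5, Hsp90b1, Herpud1, Creld2 and Calr, can then be set beside their values. Counted from the RefSeq gene start, which can differ from the start of the gene in the deposited files, they begin 65 bases before it in Hspa5, 212 and 107 in Hsp90b1, 126 in Creld2, 162 in Calr and 52 in Herpud1. By the transcripts in the files the Hspa5 match lies inside the gene, within the longer transcript ENSMUST00000028222 that starts at 34771970, and the other matches lie before all transcripts. A match is a run of letters and not a measured binding site. The elements are known from genes of this kind, so their counts in this set are not an independent test.

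Hspa5, chr2:34772020-34772049, plus strand: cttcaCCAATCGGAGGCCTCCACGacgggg
Hsp90b1, chr10:86705510-86705686, minus strand, with 2 matches: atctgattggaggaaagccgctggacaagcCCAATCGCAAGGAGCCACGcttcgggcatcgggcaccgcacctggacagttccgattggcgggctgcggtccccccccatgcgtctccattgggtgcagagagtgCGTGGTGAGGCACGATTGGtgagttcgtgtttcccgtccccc
Creld2, chr15:88819490-88819568, plus strand: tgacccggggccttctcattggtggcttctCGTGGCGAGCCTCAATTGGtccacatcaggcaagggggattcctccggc
Calr, chr8:84847045-84847123, minus strand: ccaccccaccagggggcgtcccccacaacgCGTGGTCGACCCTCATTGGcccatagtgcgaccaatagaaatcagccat
Herpud1 (ERSE-II), chr8:94386347-94386417, plus strand: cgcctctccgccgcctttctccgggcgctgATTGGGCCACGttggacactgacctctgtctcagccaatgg

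The libraries of the earlier data set differed in make-up. In sham, nuclear protein-coding genes took 30.6 to 34.2% of TPM and small structural RNAs 46.3 to 52.1%. The 6 MCAO libraries gave 54.7 to 63.9% to the first and 0.191 to 0.351% to the second. The mitochondrial share was also far apart. It ran from 24.8 to 28.9% across control oligo libraries and from 22.6 to 28.1% across knockdown libraries. Sham libraries held only 0.277 to 0.577%. Over all genes the median log2 change from sham was 0.56 for control oligo and 0.61 for knockdown, and changes against sham are therefore also given after median-ratio scaling of the libraries ("scaled"). Aligned bases were 2.70 to 2.87 Gb in sham and 4.40 to 4.92 Gb in MCAO libraries. The coverage of the 10 genes, as coverage per base summed over the transcripts of a gene, lay between 18.9 and 1472 in single libraries. Cortical excitatory markers were present in every library (6 of 6 markers, summed level 503.5 to 605 TPM in sham and 1175 to 1516 in MCAO). They did not all move alike. The highest marker mean was 235 TPM in sham and 830 in control oligo, and the lowest 15.4 and 10.1. In control oligo against sham 4 rose and 1 fell at a limma adjusted p under 0.05 (scaled 3 and 2), as did 52.6% and 12.8% of all genes (scaled 26.1% and 29.2%). Knockdown replicate 4 stood apart: its 5 neutrophil markers summed to 1394 TPM, against 30.8 to 336 in the other MCAO libraries and 2.59 to 7.59 in sham (where Retnlg was listed at 0), and its 6 monocyte and macrophage markers to 573 against 27.3 to 128 and 11.4 to 22.0. Its 6 endothelial markers (416 TPM against 191 to 232 in the other MCAO libraries) and 6 microglial markers (390.4 against 205 to 252) were also the highest, and its 6 inhibitory neuron markers the lowest of the MCAO libraries (589 against 822 to 1226). Its 6 markers of meninges and fibroblasts summed to 186 TPM, against 55.7 to 94.2 in the other MCAO libraries, and its 6 striatal markers to 115, against 189 to 239. Knockdown replicate 3 held choroid plexus markers at 61.2 TPM, against 2.14 to 3.74 in the other 8 libraries. Markers of plasma cells, which secrete much protein, summed to 0.614 to 8.43 TPM in all 9 libraries (Mzb1 at 0 in sham, Tnfrsf17 at 0 in knockdown). The part of these cell types in the results was not tested, except that values without a library are given.

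Control oligo MCAO against sham asks how the infarcted cortex differs 6 h after reperfusion. Before scaling, 8 of the 10 genes rose and Pdia4 fell at a Benjamini-Hochberg adjusted p under 0.05 (limma over all 17080 genes), and Hyou1 did not pass. The groups did not overlap for the same 9 genes, where 56.2% of all genes were non-overlapping and higher and 14.2% lower. Of all genes, 52.6% were called higher and 12.8% lower, so 80.5% of the calls were higher. After scaling 26.1% of genes were called higher and 29.2% lower (47.2% of calls higher), and of the 10 genes Hspa5, Creld2, Herpud1, Calr and Xbp1 rose, Pdia4 and Hyou1 fell, and Hsp90b1, Sdf2l1 and Manf did not pass. The median log2 change of the 10 was 1.04 (all genes 0.56) and 0.38 scaled (all genes 0.0098). In tissue pieces like these, a lower level can come from fewer cells of a type or from less RNA per cell, which cannot be told apart.

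**Figure D1:**
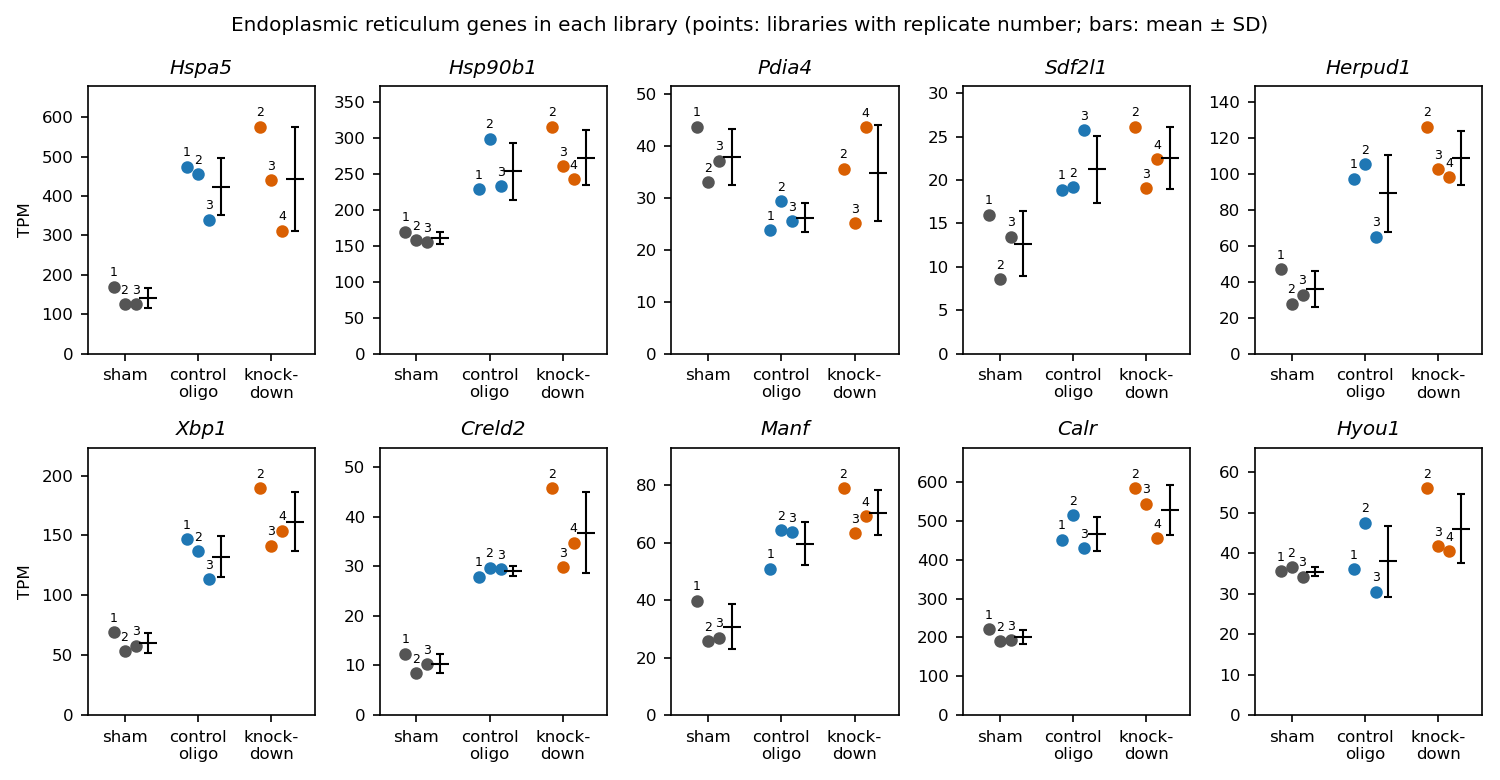
TPM of each gene (y axis from 0, own scale per panel) in each library of the sham, control oligo and knockdown groups; points are libraries with their replicate number, and bars beside them are the mean ± SD of 3. Before scaling, as shown, Hspa5, Hsp90b1, Calr, Xbp1, Herpud1, Creld2, Manf and Sdf2l1 lie higher in every control oligo library than in every sham library. Pdia4 and Hyou1 do not. Of all genes, 56.2% lie higher in every control oligo library than in every sham library. Knockdown replicate 2 is the highest library for 9 of the 10 genes.

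The chaperones of the Hsp70 and Hsp90 families differed among themselves. Hspa5 (BiP, also called GRP78; chromosome 2, 34771970 to 34777547, plus strand, GRCm38) is the Hsp70 of the ER lumen, which also holds the sensors inactive. It measured 169, 125 and 126 TPM in sham, 475, 456 and 340.4 in control oligo, and 576, 441 and 312 in knockdown libraries. Every MCAO library lay above every sham library, and the control oligo mean was 3.03-fold the sham mean (log2 change 1.59, SE 0.17, adjusted p = 0.000117; scaled 0.93, adjusted p = 0.00148).

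Hsp90b1 (GRP94; chromosome 10, 86690209 to 86705509, minus strand), the Hsp90 of the ER, measured 169, 158 and 155 TPM in sham, 228, 299 and 232 in control oligo, and 315, 260.0 and 242 in knockdown libraries. The groups did not overlap before scaling (log2 change 0.64, SE 0.14, adjusted p = 0.00317), but the change was -0.020 after scaling (adjusted p = 0.882), so its direction turned. Its promoter window holds 2 of the ERSE matches shown above. Hyou1 (GRP170; chromosome 9, 44379490 to 44392369, plus strand), a large Hsp70-like protein that exchanges the nucleotide of BiP, measured 35.6, 36.6 and 34.2 TPM in sham, 36.0, 47.6 and 30.5 in control oligo, and 56.1, 41.8 and 40.5 in knockdown libraries. Control oligo and sham overlapped (log2 change 0.075, SE 0.17, adjusted p = 0.719), and after scaling Hyou1 was lower in every control oligo library (log2 change -0.58, adjusted p = 0.00463).

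Calr (calreticulin; chromosome 8, 84841850 to 84846934, minus strand) is a lectin-like chaperone of newly glycosylated proteins and a calcium-binding protein of the lumen. It had the highest mean of the 10 genes in each group, with 221, 189.5 and 193 TPM in sham, 452, 514 and 430.2 in control oligo, and 584, 545 and 456 in knockdown libraries. The control oligo mean was 2.31-fold that of sham (log2 change 1.20, SE 0.12, adjusted p = 7.82e-05; scaled 0.54, adjusted p = 0.00405), with no overlap on either scale.

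Pdia4 (ERp72; chromosome 6, 47796141 to 47813430, minus strand), a disulfide isomerase, went the other way. It measured 43.6, 32.9 and 37.1 TPM in sham, 23.7, 29.3 and 25.4 in control oligo, and 35.6, 25.1 and 43.5 in knockdown libraries. All control oligo libraries lay below all sham libraries (0.690 of the sham mean; log2 change -0.51, SE 0.16, adjusted p = 0.0185; scaled -1.16, adjusted p = 0.000363). Without sham replicate 1, sham replicate 3 or control oligo replicate 1 the unscaled adjusted p was 0.0930, 0.0524 and 0.0670. Creld2 (chromosome 15, 88819646 to 88826681, plus strand), an ER protein with isomerase activity, rose most after Hspa5. Its level was 12.4, 8.50 and 10.3 TPM in sham, 27.9, 29.8 and 29.5 in control oligo, and 45.8, 29.8 and 34.8 in knockdown libraries. The control oligo mean was 2.79-fold that of sham (log2 change 1.41, SE 0.17, adjusted p = 0.000162; scaled 0.79, adjusted p = 0.00493).

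Manf and Sdf2l1 are small ER proteins that work with BiP. Manf (chromosome 9, 106838312 to 106891979, minus strand), which is also secreted and has neurotrophic effects, measured 39.8, 25.7 and 26.9 TPM in sham, 50.9, 64.4 and 63.6 in control oligo, and 79.0, 63.3 and 69.3 in knockdown libraries. It rose before scaling, with no overlap (log2 change 0.95, SE 0.19, adjusted p = 0.00262), and did not pass after it (0.30, adjusted p = 0.200). Sdf2l1 (chromosome 16, 17130138 to 17132383, minus strand), a partner of BiP and of the J-domain protein Dnajb11, measured 16.0, 8.56 and 13.4 TPM in sham, 18.9, 19.2 and 25.7 in control oligo, and 26.1, 19.1 and 22.4 in knockdown libraries. It passed before scaling (log2 change 0.73, SE 0.24, adjusted p = 0.0237) and not after (0.10, adjusted p = 0.764), and on TPM over nuclear protein-coding genes its change was -0.030. The call was lost without sham replicate 2, sham replicate 3 or control oligo replicate 3 (adjusted p = 0.0823, 0.0503 and 0.0594).

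Herpud1 (chromosome 8, 94386438 to 94395377, plus strand), an ER membrane protein that takes part in the degradation of misfolded proteins, measured 46.9, 27.7 and 32.7 TPM in sham, 97.1, 105 and 64.9 in control oligo, and 126, 102 and 97.8 in knockdown libraries. The lowest control oligo library, replicate 3, was still above the highest sham library, and the control oligo mean was 2.49-fold that of sham (log2 change 1.297, SE 0.24, adjusted p = 0.00159; scaled 0.64, adjusted p = 0.0314). Xbp1 (chromosome 11, 5520659 to 5525893, plus strand) measured 69.0, 53.4 and 58.0 TPM in sham, 147, 137 and 113 in control oligo, and 189, 141 and 154 in knockdown libraries. All MCAO libraries lay above all sham libraries, with a control oligo mean 2.20-fold that of sham (log2 change 1.13, SE 0.15, adjusted p = 0.000318; scaled 0.47, adjusted p = 0.0188). On TPM over nuclear protein-coding genes, neither Herpud1 (0.51, adjusted p = 0.0888) nor Xbp1 (0.33, adjusted p = 0.0717) passed.

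The stretch that IRE1 cuts out of the Xbp1 mRNA lies in exon 4 of the main transcript (chr11:5524279-5524304, GRCm38) and is shown in capitals, with the bases on each side, because the level of Xbp1 says nothing of its cutting.
Xbp1, chr11:5524267-5524316, plus strand: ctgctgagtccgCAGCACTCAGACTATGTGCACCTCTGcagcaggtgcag
None of the 4 Xbp1 transcripts in the files lacks these 26 bases as an intron, since the smallest gap between their exons is 300 bases, so cut and uncut mRNA could not be separated.

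**Figure D2:**
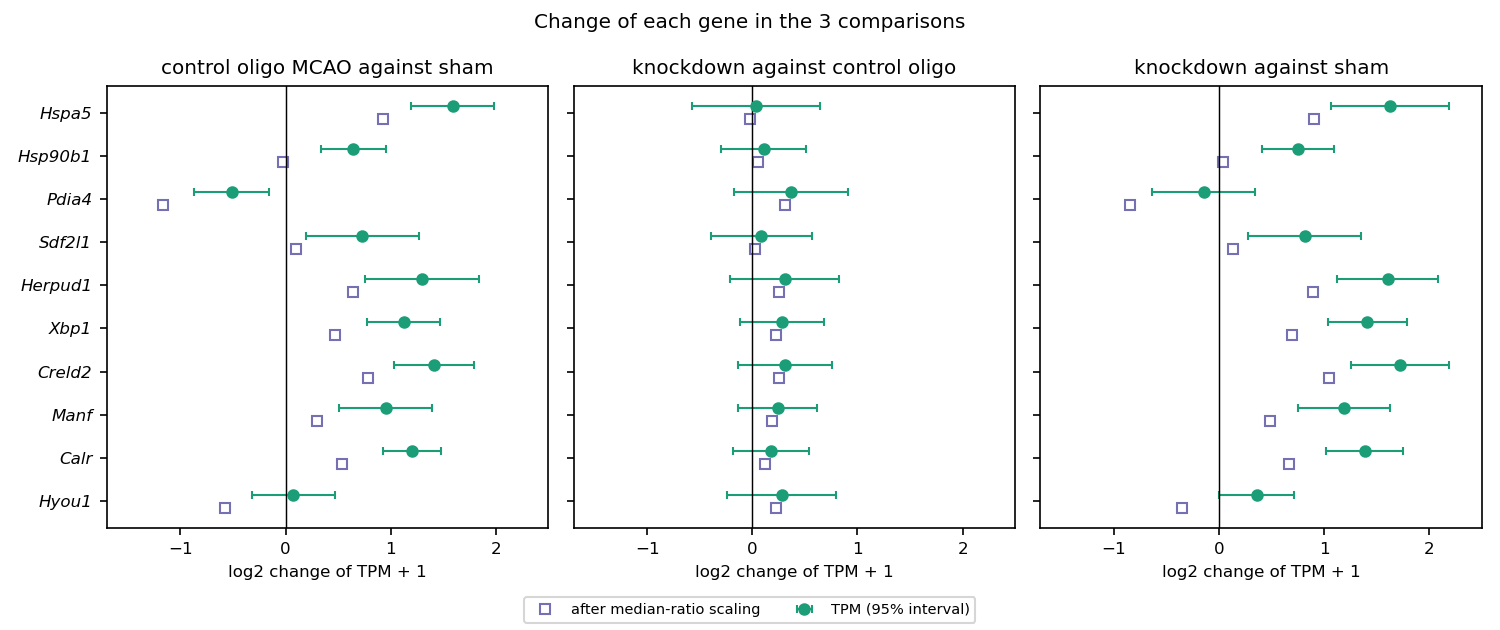
Log2 change of TPM + 1 (x axis) of each gene (rows) in the 3 comparisons; filled circles are changes of TPM with 95% intervals from limma, open squares the changes after median-ratio scaling. Against sham, scaling moves every gene to the left, with Hsp90b1 at -0.020 and Hyou1 at -0.58 in the control oligo panel, while all 10 intervals of knockdown against control oligo include 0.

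TPM is per length, so the levels of the genes can be put in order within a library. Calr was first by mean in each group, and Creld2 (sham) or Sdf2l1 (both MCAO groups) was last. Hspa5 came after Calr and Hsp90b1 in sham, where its range overlapped that of Hsp90b1, and next to Calr in control oligo, where it lay above Hsp90b1 in every library and overlapped Calr. Pdia4 came next after Xbp1 in sham and last but Sdf2l1 in both MCAO groups. Neighbours that overlapped in sham were also Pdia4 with Herpud1, Herpud1 with Hyou1, Hyou1 with Manf, and Sdf2l1 with Creld2. In both MCAO groups Creld2 overlapped Pdia4, and Pdia4 overlapped Sdf2l1, so these last places were not separated. In knockdown Calr with Hspa5, Hspa5 with Hsp90b1, and Hyou1 with Creld2 overlapped too. Hspa5 made up 18.3 to 20.6% (sham), 25.1 to 30.5% (control oligo) and 21.2 to 28.3% (knockdown) of the summed TPM of the 10 genes, a share that library scaling does not alter. Of the nuclear protein-coding TPM the 10 genes together held 0.195 to 0.243% (sham), 0.248 to 0.279% (control oligo) and 0.258 to 0.318% (knockdown).

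Knockdown against control oligo asks whether lowering eRNA_06347 changes the response to stroke. None of the 10 genes passed (adjusted p = 1 in limma for each, and 0 at an unadjusted p under 0.05), where 2 of 17080 genes (0.0117%; 1 higher and 1 lower) passed, 3 after scaling (0.0176%; 2 higher and 1 lower), and 321 (1.88%) had an unadjusted p under 0.05. All 10 log2 changes were above 0, from 0.035 for Hspa5 to 0.37 for Pdia4, as were 61.8% of all genes, and after scaling 9 of 10 were, with Hspa5 at -0.020 (52.4% of all genes). Only Creld2 had groups that did not overlap, by 29.83 in knockdown replicate 3 over 29.75 in control oligo replicate 2, where 3.6% of genes were non-overlapping and higher; after scaling only Herpud1 did (3.49% of genes).

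The intervals give the changes compatible with these libraries. For Hspa5 the 95% interval of the log2 change ran from -0.58 to 0.65, for Calr from -0.19 to 0.54, for Hsp90b1 from -0.30 to 0.51 and for Xbp1 from -0.12 to 0.68. Creld2 had an interval from -0.14 to 0.76, Herpud1 from -0.21 to 0.82 and Pdia4 from -0.18 to 0.91. The intervals of Manf (-0.14 to 0.62), Hyou1 (-0.24 to 0.80) and Sdf2l1 (-0.40 to 0.56) also included 0.

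Knockdown replicate 2 was the highest of all 9 libraries for 9 of the 10 genes, all but Pdia4, against 19.4% of all genes, and after scaling for 7 of the 10, against 8.20%. Without it, the log2 changes of the 10 genes ran from -0.18 to 0.33, and those of Hspa5, Hsp90b1 and Sdf2l1 were below 0. Without knockdown replicate 4, whose leukocyte markers were high, they ran from 0.082 to 0.38, and without knockdown replicate 3 from 0.017 to 0.58, with 0 of 10 called each time. Sham replicate 1 was in turn the highest sham library for 9 of the 10 genes (42.7% of all genes), and after scaling for 8 of the 10 (30.7%).

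Knockdown against sham shares the sham libraries with the first comparison and the knockdown libraries with the second. In it 8 genes rose, none fell, and Pdia4 and Hyou1 did not pass, with 52.7% of all genes called higher and 12.5% lower. The largest log2 changes were those of Creld2 (1.72, 3.54-fold), Hspa5 (1.63, 3.16-fold), Herpud1 (1.60, 3.04-fold), Xbp1 (1.41), Calr (1.38) and Manf (1.19), with adjusted p from 0.000234 to 0.00103. These 6 also rose after scaling (0.49 to 1.04; 22.7% of genes called higher and 27.1% lower), Manf at an adjusted p of 0.0484. Hsp90b1 (0.75) and Sdf2l1 (0.81) passed only unscaled and were at 0.032 and 0.13 scaled. Hyou1 was at 0.36 (adjusted p = 0.0723) and fell after scaling (-0.35, adjusted p = 0.0495), while without knockdown replicate 4 it rose unscaled (0.44, adjusted p = 0.0246). Pdia4 stood at -0.15 (adjusted p = 0.556) and fell after scaling (-0.85, adjusted p = 0.0166); its unscaled change was 0.062 without knockdown replicate 3. The 3 means of Pdia4, side by side, were 37.9 ± 5.39 TPM (sham), 26.2 ± 2.85 (control oligo) and 34.7 ± 9.24 (knockdown; SD, n = 3).

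The transcripts of the genes were also compared. The files hold 45 transcripts of the 10 genes, of which 37 passed the filter. In control oligo against sham 14 of the 37 were called, as were 35.3% of all 39894 transcripts (scaled 9 of 37 and 26.4%). In knockdown against control oligo 0 were called, where 0.0677% of all transcripts were.

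The make-up of Hspa5 differed between libraries. Its main coding transcript, ENSMUST00000100171, carried 90.8 to 91.8% of the gene's TPM in control oligo libraries and 92.2 and 93.0% in knockdown replicates 3 and 2, but 43.0% in knockdown replicate 4, 40.7 and 41.7% in sham replicates 1 and 3, and 89.5% in sham replicate 2. In knockdown replicate 4 the retained-intron transcript ENSMUST00000155595 stood at 118 TPM (37.9% of the gene), against 18.1 to 27.3 in the other MCAO libraries. In sham replicates 1 and 3 another such transcript, ENSMUST00000145466, held 27.4 and 34.2%. The coding transcript ENSMUST00000100171 rose in control oligo against sham (log2 change 2.35, adjusted p = 0.00245; scaled 1.62, adjusted p = 0.00634), against 1.59 for the gene as a whole. The split of a gene's reads between overlapping transcripts is estimated by StringTie, and whether these shares are real differences in splicing was not tested. Retained-intron transcripts took 4.53 to 7.57% of the TPM of protein-coding genes in the 9 libraries, with knockdown replicate 4 at 6.98%.

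Summed over protein-coding transcripts alone, an alternative added after the data were seen, Hspa5 changed by 2.23 in control oligo against sham and by -0.19 in knockdown against control oligo. Herpud1 had 20.2% of its TPM on retained-intron transcripts in knockdown replicate 4 and 2.503 to 10.2% in the other 8 libraries. Manf had 39.5% on them in control oligo replicate 3 and 34.9% in sham replicate 2, with 10.4 to 17.5% elsewhere. Calr, Hsp90b1, Creld2, Sdf2l1 and Pdia4 were carried by 1 coding transcript at 93.4% or more in every library. For Hyou1 the main coding transcript, ENSMUST00000160902, was at 22.6 to 24.0 TPM in sham and 17.6 to 22.5 in control oligo (log2 change -0.20, adjusted p = 0.344; scaled -0.90, adjusted p = 0.00374), while the coding transcript ENSMUST00000066601, of lower level, was at 0.985 to 1.88 TPM in sham and at 4.64 to 7.32 in control oligo, a rise (log2 change 1.43, adjusted p = 0.00888; scaled 0.91, adjusted p = 0.0381). In knockdown replicates 2, 3 and 4 ENSMUST00000066601 stood at 8.78, 3.70 and 0.035 TPM, on both sides of the sham range, and did not pass against sham (0.55, limma adjusted p = 0.620).

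**Figure D3:**
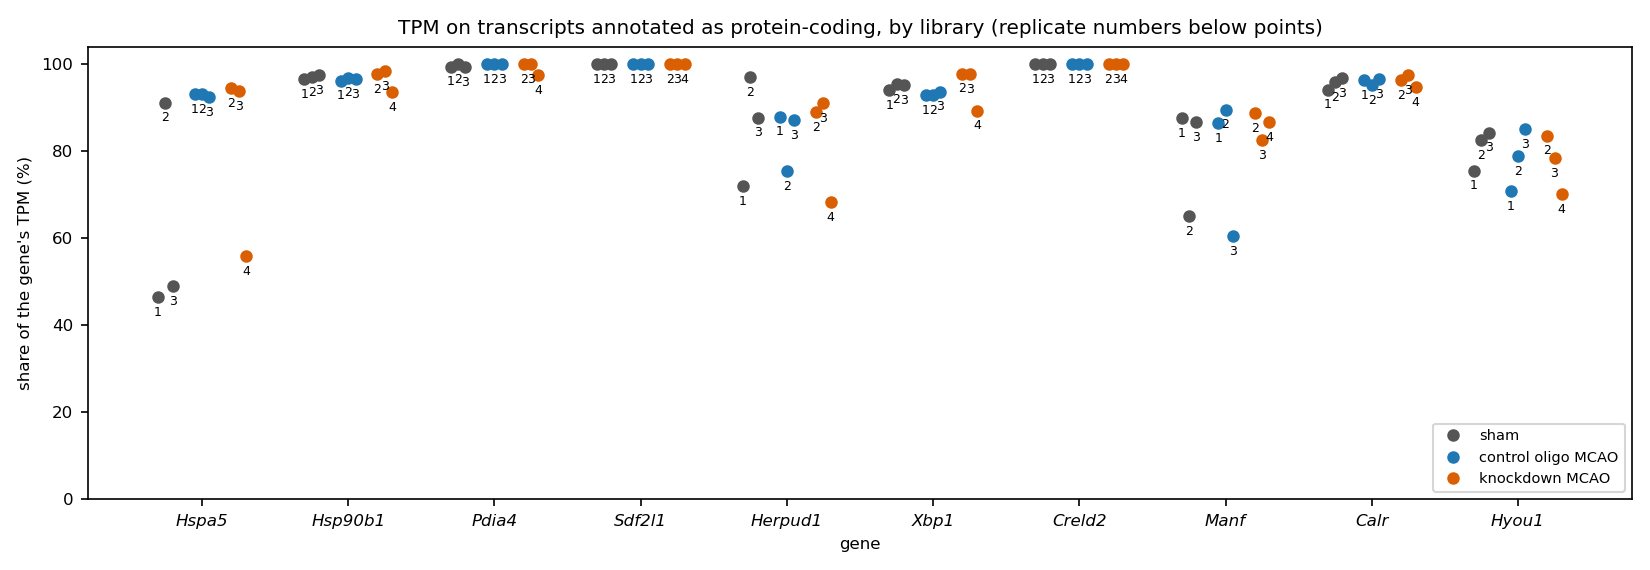
Share of each gene's TPM carried by transcripts annotated as protein-coding (y axis, %) in each library, with colours for the groups and replicate numbers below the points. For Hspa5, sham replicates 1 and 3 and knockdown replicate 4 sit at 46.4, 48.9 and 55.9%, while the other 6 libraries are above 91%.

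The genes around these 10 in the same pathway were taken from 9 further lists, whose counts are set beside the shares of all genes called higher and lower (52.6% and 12.8%; scaled 26.1% and 29.2%). Of the UPR sensors and their proteases, 9 of 10 were tested; 5 rose in control oligo against sham, 0 fell and 4 did not pass (scaled 4 rose and 2 fell). The unscaled count is near the 52.6% of all genes called higher. The 4 with the smallest p were membrane-bound factors related to ATF6: Creb3l1 had 3.29 ± 0.161 TPM in control oligo and 0.157 ± 0.0713 in sham libraries (scaled log2 change of 1.67), Creb3 at 63.5 ± 16.8 against 18.8 ± 1.86 (1.02), Creb3l2 at 5.22 ± 0.758 against 1.40 ± 0.393 (0.93) and Atf6b at 29.8 ± 4.67 against 13.7 ± 0.960 (0.42). The sensors themselves, named after their values were seen, were at 17.0 ± 1.94 TPM against 9.32 ± 0.644 for Eif2ak3 (log2 change 0.80, adjusted p = 0.00212; scaled 0.18, not passed), 3.58 ± 0.680 against 2.42 ± 0.408 for Ern1 (0.42, adjusted p = 0.0845; scaled -0.085) and 30.7 ± 7.27 against 28.1 ± 1.76 for Atf6 (0.10, adjusted p = 0.646; scaled -0.55, adjusted p = 0.00694).

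All 12 genes of the PERK arm and ATF4 targets rose, 10 of them also after scaling with 0 falling, where 52.6% of all genes were called higher (26.1% scaled). Their median log2 change was 2.63 (2.03 scaled), above the 1.04 (0.38 scaled) of the 10 ER genes. Nupr1, a stress-induced chromatin protein, had 52.7 ± 13.6 TPM in control oligo and 4.43 ± 0.260 in sham libraries (scaled log2 change of 2.69) and the transcription factor Atf3 at 72.0 ± 33.9 against 0.334 ± 0.119 (5.32). Ppp1r15a, which turns off the block of translation, stood at 46.9 ± 12.6 against 4.64 ± 1.01 (2.48), and the factor Atf5 at 25.2 ± 6.38 against 3.05 ± 0.169 (2.11). Many of these genes also answer other kinds of stress.

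The share of BiP cofactors called higher was near that of all genes. Of 10 J-domain and nucleotide exchange genes, 5 rose and 0 fell before scaling, and 3 rose and 5 fell after it (all genes 52.6% higher and 12.8% lower; scaled 26.1% and 29.2%), with a median log2 change of 0.24 that turned to -0.39. The genes that rose on both scales were Dnajb9, with 57.0 ± 8.49 TPM in control oligo and 21.9 ± 2.13 in sham libraries (scaled log2 change of 0.69), Dnajb11, at 71.9 ± 13.5 against 30.4 ± 3.88 (0.55), and the translocon partner Sec63, at 41.5 ± 8.29 against 19.2 ± 4.38 (0.44). Dnajb12 passed only before scaling (0.74, scaled 0.11).

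All 14 disulfide isomerases and oxidases rose, 6 of them also after scaling, with 0 falling (all genes called higher 52.6%, scaled 26.1%). Those named by p were Pdia3, with 170.2 ± 19.2 TPM in control oligo and 72.6 ± 5.72 in sham libraries (scaled log2 change of 0.56), P4hb, at 82.7 ± 4.48 against 39.1 ± 0.0687 (0.40), Erp29, at 36.7 ± 3.00 against 15.0 ± 1.03 (0.60), and Qsox1, at 16.3 ± 2.08 against 6.50 ± 0.929 (0.61). Pdia4, of the same family, is the gene of the 10 that fell on both scales. Of 19 genes of the lectin cycle and other lumenal folding proteins, 14 rose and Uggt1 fell (scaled 5 rose and 4 fell), the scaled count of higher genes being near the 26.1% of all genes. The prolyl isomerases Fkbp2, at 204 ± 13.4 TPM against 60.1 ± 2.03 (scaled 1.08), and Ppib, at 173 ± 12.8 against 63.2 ± 2.93 (0.78), had the smallest p, followed by the glucosidase subunit Prkcsh (0.67) and Nucb2 (0.87).

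In ER-associated degradation, the route that Herpud1 serves, 19 of 22 genes rose and Sel1l fell (scaled 9 rose and 3 fell), where 52.6% of all genes were called higher and 12.8% lower (scaled 26.1% and 29.2%). The ubiquitin ligase Syvn1 had 28.8 ± 7.02 TPM in control oligo and 5.50 ± 0.443 in sham libraries (scaled log2 change of 1.57), Aup1 at 84.6 ± 19.8 against 23.2 ± 0.435 (1.15), Selenos at 65.1 ± 6.76 against 27.0 ± 3.16 (0.59) and Ufd1 at 51.6 ± 10.7 against 17.5 ± 1.38 (0.85). Sel1l, the partner of Syvn1 in its complex, had a mean of 23.3 TPM in control oligo and 51.5 in sham libraries (log2 change -1.09, adjusted p = 0.00299; scaled -1.74), and was named after its value was seen, as were Uggt1 above and Sec23a and Itpr2 further on.

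Of 23 genes for translocation, signal cleavage and N-glycosylation 17 rose and 0 fell, against 52.6% and 12.8% of all genes, and scaled 11 rose and 5 fell, against 26.1% and 29.2%. The smallest p belonged to Ssr4 (scaled log2 change 0.60), Sec61g (0.77), Srpr (0.46) and Ssr3 (0.36), parts of the machinery that brings proteins into the ER. In KDEL retrieval and COPII transport, which return or export ER proteins, 11 of 15 rose (52.6% of all genes) and Sec23a fell, and scaled 5 rose, near the 26.1% of all genes, and 2 fell. The smallest p belonged to the coat subunits Sec13 (0.57) and Sec24b (0.59), Surf4 (0.42) and the KDEL receptor Kdelr3 (0.97). Of 11 genes of the ER calcium store 2 rose and 3, Itpr1, Itpr2 and Ryr2, fell (scaled 1 rose and 6 fell), where 12.8% of all genes were called lower (29.2% scaled). The release channels Itpr1, with 106 ± 16.8 TPM in control oligo and 250.2 ± 25.0 in sham libraries (log2 change of -1.24, scaled -1.90), and Ryr2, at 33.8 ± 14.3 TPM in control oligo (-1.62, scaled -2.28), were lower, while Sec61a1 was higher (1.28, scaled 0.63) and Tmbim6 passed only before scaling (0.86, scaled 0.19).

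**Figure D4:**
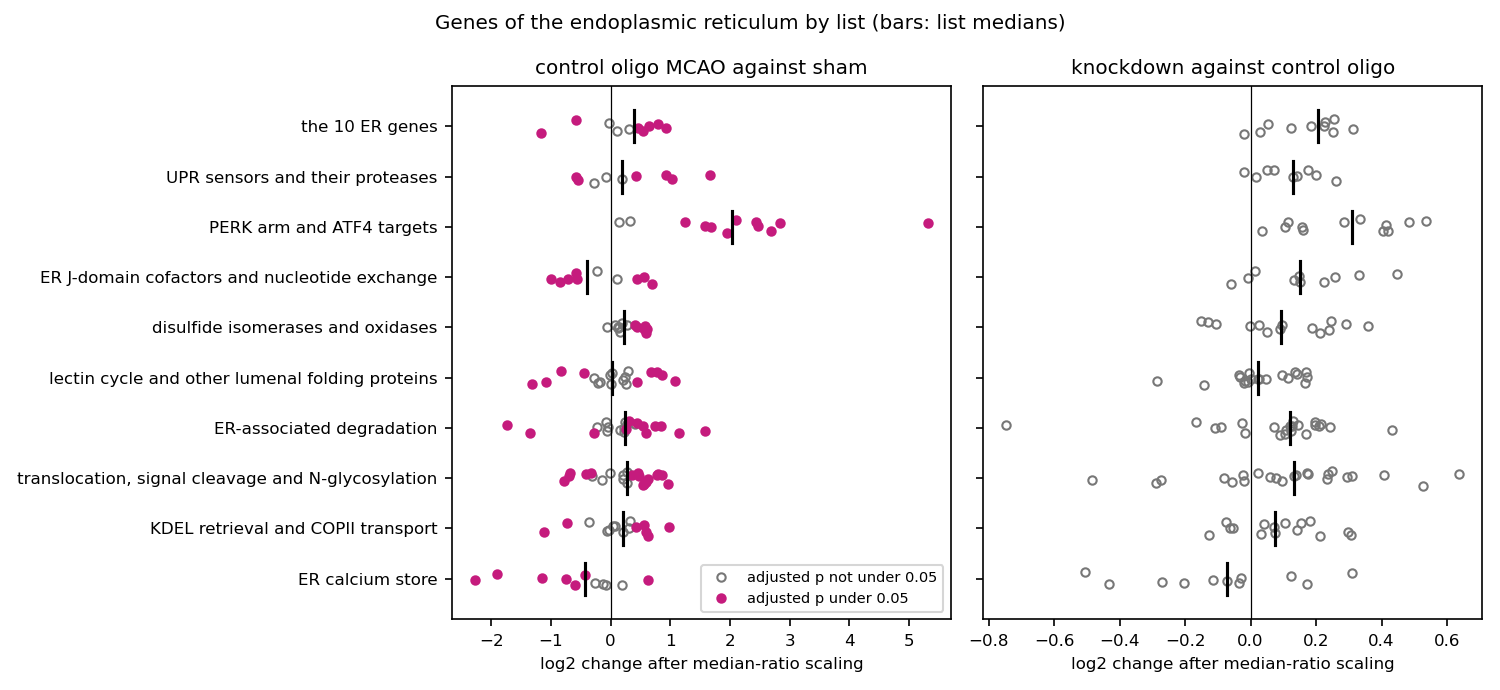
Log2 change after median-ratio scaling (x axis) of each tested gene in the 10 ER genes and the 9 further lists (rows), for control oligo against sham and knockdown against control oligo; filled points passed at an adjusted p under 0.05, open points did not, and bars are medians. The PERK and ATF4 list has the highest median on the left (2.03) and the calcium store the lowest (-0.43), and no point on the right is filled.

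In knockdown against control oligo 0 genes passed in each of these 9 lists. Their median log2 changes lay between -0.044 (ER calcium store) and 0.37 (PERK arm and ATF4 targets), against 0.26 for the 10 ER genes and 0.059 for all genes. All 12 genes of the PERK list were above 0 on both scales, but 0 of them had an unadjusted p under 0.05 in limma. Of the UPR sensor list 9 of 9 were above 0 (scaled 8), and of all genes 61.8% (scaled 52.4%). The smallest unadjusted p values of the lists belonged to Spcs2, a signal peptidase subunit (0.70, unadjusted p = 0.0152), and Syvn1 (-0.70, unadjusted p = 0.0154), both with an adjusted p of 1. Syvn1 measured 17.0 ± 1.28 TPM in knockdown against 28.8 ± 7.02 in control oligo. Others with the smallest p in their lists were P4hb (0.41), Dnajb9 (0.39), Surf4 (0.35), Trib3 (0.48), Atf6b (0.26), Canx (0.22) and Stim1 (-0.38). Their unadjusted p in limma ran from 0.0395 (Surf4) to 0.200 (Canx).

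The 5 other genes whose pattern over the 9 libraries was most like the median of the 10, among 11713 compared, were Shank3 (mean absolute log2 difference 0.052), Dnajb11 (0.092), Cep89 (0.096), Eif4e2 (0.096) and Pus1 (0.097). Patterns were compared as scaled log2(TPM + 1) centred on the mean of each gene, so the level of a gene did not count. Of the 10 genes, Manf (0.076), Xbp1 (0.098) and Calr (0.099) lay closest to that median and Pdia4 (0.648) and Hyou1 (0.394) farthest from it. That median was made from the 10 genes themselves, so their closeness to it is no separate evidence. Of the compared genes, 0.0085 to 0.068% lay closer to it than Manf, Xbp1 and Calr. For Hsp90b1, Herpud1, Creld2 and Sdf2l1 this share was 13.2 to 22.4%, for Hspa5 39.0%, for Hyou1 61.0% and for Pdia4 83.8%.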

How the data were processed

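Per the file headers, the deposited tables come from StringTie 1.3.4d, run on a merged annotation (-e, -B) without a strand option, so values of overlapping genes on opposite strands are uncertain. Per the submitters' processing notes, HISAT2 2.0 was the aligner and GRCm38 (mm10) the build. Per the labels' protocols, the control oligo and knockdown libraries were poly(A)-selected, stranded TruSeq libraries read in pairs on a NovaSeq; for sham libraries the kit was not given in the sources used here. The authors deposited coverage, FPKM and TPM per transcript, each an attribute within 1 column. TPM was summed per gene ID (FPKM as an alternative), and coverage gave the depth. Read counts were not used.

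The 6 libraries of a comparison entered 1 two-sided limma fit (version 3.58.1, trend on, R 4.3.3) of log2(TPM + 1), over genes at 1 TPM or above in 3 or more of 9 libraries, with Benjamini-Hochberg adjustment over all genes and a threshold of 0.05; the pseudocount understates changes of low genes. The fit was tested on simulated data without a shift between libraries, so that test does not cover the different make-up of the sham libraries. For scaling, a library was divided by the median of its ratios to the geometric means of the genes. The p-values measure the spread between these samples, since the labels do not tie libraries to single animals. Alternatives were median-ratio scaling, TPM over nuclear protein-coding genes, FPKM, a pseudocount of 0.1, no filter, all 9 libraries in 1 fit, each replicate left out and a replicate block; 1, protein-coding transcripts only, was added after the data were seen.

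Genes and lists were chosen with earlier results of these data known. Named were the 10 genes, of each list up to 4 with the smallest p in control oligo against sham and up to 2 in knockdown against control oligo, the transcripts with at least 10% of a gene's TPM in a group, and the 5 genes most alike (mean TPM at least 5); others are said to be named after their values were seen. Python 3.11.15, pandas 2.3.3, numpy 2.4.6 and matplotlib 3.10.9 were used.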

Additional observations from a re-analysis of the deposited data

How the results depend on the processing

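The comparisons with sham depended on how the libraries were scaled. In control oligo against sham, the genes called higher and lower numbered 8 and 1 as deposited, 5 and 2 after median-ratio scaling, 3 and 2 on TPM over nuclear protein-coding genes, and 5 and 2 on FPKM. In knockdown against sham they numbered 8 and 0 as deposited, 6 and 2 after median-ratio scaling, 5 and 2 on protein-coding TPM, and 6 and 1 on FPKM. Over nuclear protein-coding genes 7390 genes in all were called in the first and 6685 in the second comparison, of 14585 tested. Hsp90b1 turned in control oligo against sham (-0.020 scaled, -0.16 protein-coding TPM) and in knockdown against sham (-0.14 protein-coding TPM), as did Sdf2l1 (-0.030 and -0.032 on protein-coding TPM). Hyou1 turned in the first (-0.58 scaled, -0.72 protein-coding TPM, -0.50 FPKM, -0.095 without control oligo replicate 2, with -0.095 to 0.22 over left-out libraries) and in the last (-0.35, -0.53 and -0.26), and Pdia4 in the last without knockdown replicate 3 (0.062; range over left-out libraries -0.32 to 0.062). The different make-up of the sham libraries moves with these changes, and the cause was not tested. Member transcripts called in control oligo against sham numbered 14, or 9 scaled.

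In knockdown against control oligo 0 of the 10 genes were called under each alternative run. All genes called numbered 2, or 0 on protein-coding TPM, 4 with all 9 libraries in 1 fit and 0 with a replicate block. Hspa5 was below 0 after scaling (-0.020), on protein-coding TPM (-0.055), on protein-coding transcripts (-0.19), and without control oligo replicate 3 (-0.11) or knockdown replicate 2 (-0.18), with a range over left-out libraries of -0.18 to 0.27. Sdf2l1 was at -0.00294 on protein-coding TPM and -0.024 without knockdown replicate 2 (range -0.024 to 0.22), where Hsp90b1 was at -0.00165 (range -0.00165 to 0.23).

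Leaving out single libraries gave 7 to 8 genes higher and 0 to 1 lower in control oligo against sham, 7 to 9 higher and 0 lower in knockdown against sham, and 1 to 3 genes called in all in knockdown against control oligo. The deviations of same-numbered libraries had r of -0.03, -0.07 and 0.12 for control oligo and sham, 0.23 and 0.07 for knockdown and control oligo, and -0.06 and 0.07 for knockdown and sham. Different-numbered libraries had r of -0.11 to 0.14, -0.24 to 0.29 and -0.12 to 0.11 in the same order. With so few shared numbers this cannot show whether the numbers pair libraries, and the main fits used no pairing. With a replicate block 8 genes were higher and 1 lower in control oligo against sham, and 9 higher in knockdown against sham, Hyou1 included (0.44, adjusted p = 0.0408). The depth of single transcripts was not compared with that of the genes.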
